A study of Rattus norvegicus with 12 samples.

Results

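The genes described here encode the matrix metalloproteinases (MMPs), the ADAMTS proteases with their ADAMTS-like relatives, and the tissue inhibitors of metalloproteinases (TIMPs). They were chosen by symbol alone, as every gene of the count table whose symbol starts with Mmp, Timp or Adamts followed by a number, or by l and a number. This gave 52 of 33294 genes, made up of 23 Mmp genes, 19 Adamts genes, 5 Adamtsl genes, 4 Timp genes and Mmp24os, an opposite-strand neighbour of Mmp24 that fits the symbol rule without being a protease gene. Of the 52 genes, 45 had more than 3 counts in at least 1 library, and 32 reached a mean of 100 scaled counts in some group. Scaled counts are read counts brought to a common library size, so that a gene can be compared between libraries but not with another gene.

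MMPs and ADAMTS proteases are zinc-dependent enzymes that are made as inactive precursors and act outside the cell or at its surface. MMPs cleave collagens, basement membrane and cell surface proteins, whereas ADAMTS proteases mature procollagens or cleave proteoglycans, fibrillin microfibrils and plasma proteins. The ADAMTS-like proteins share the ancillary domains of the ADAMTS proteases but have no catalytic domain. TIMPs bind the active site of these enzymes and block it, and TIMP3 also inhibits several ADAMTS proteases. In the artery wall, smooth muscle cells lie in a basement membrane, and both the making and the removal of matrix change when they leave the contractile state to divide and migrate.

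The libraries were made from poly(A) RNA of PAC1 cells, an established line of rat pulmonary artery smooth muscle cells that can be kept in a more differentiated (PAC1-D) or a more proliferative (PAC1-P) state by how often they are split. There were 4 groups of 3 libraries: D1, PAC1-D cells with control siRNA; P, PAC1-P cells with control siRNA; RBPMS KD1, PAC1-D cells with siRNA against RBPMS; and MBNL KD, PAC1-D cells in which MBNL1 and MBNL2 were targeted at once, whose library titles name MBNL1 only. RBPMS and the MBNL proteins are RNA-binding proteins that control splicing. By the sample labels, every group received 90 pmol of siRNA, a second dose after 24 h, and was taken 48 h later, whereas the study's own text describes a longer course, so that the timing is not settled. PAC1-D cells were split once a week and PAC1-P cells more often, so that the state of the P cells and their passaging cannot be told apart, and all groups come from 1 cell line. The labels do not say how the 3 libraries of a group relate to each other, and the p-values measure the spread between these libraries.

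Total counts lay between 80842635 and 90771289 a library, at which 3 counts, taken as the limit of detection, are 0.0331 to 0.0371 counts per 1e6 counts (CPM). Of the 51304 values from 1 to 10 in the count table, 70.6% were even. The totals also lay above the number of reads to which the study's text says each library was thinned. How read mates were counted is not stated in the sources, so that 2 counts may often be 1 fragment. Where an interval is given both ways, the wider one, with 2 counts taken as 1 fragment, is the safer. Rbpms RNA lay at 24.7 to 25.5% of the D1 mean in RBPMS KD1 and at 6.23 to 6.36% in P. In MBNL KD, Mbnl1 lay at 23.5 to 24.0% and Mbnl2 at 29.0 to 30.0%. MBNL KD replicate 3 had the lowest total and differed from the other MBNL KD libraries more than any other replicates differed from each other, and results that rest on it are given with and without it.

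The promoters of the family fell into sets of unlike sequence, and 4 are shown because they stand for genes whose RNA behaved differently in these cells. They are the 250 bases before the annotated start of each gene, from RefSeq on assembly GRCr8, printed 5′ to 3′ on the strand of the gene, with matches to the searched motifs in capitals. Mmp13 and Mmp3 (both on chromosome 8, plus strand, chr8:12782579-12782828 and chr8:12925031-12925280) belong to a cluster of neighbouring Mmp genes of which Mmp13 alone had more than 8 counts in a library. Mmp15 (minus strand, chr19:9691001-9691250) rose and Timp3 (minus strand, chr7:19459559-19459808) fell in P, as described further on.
Mmp13: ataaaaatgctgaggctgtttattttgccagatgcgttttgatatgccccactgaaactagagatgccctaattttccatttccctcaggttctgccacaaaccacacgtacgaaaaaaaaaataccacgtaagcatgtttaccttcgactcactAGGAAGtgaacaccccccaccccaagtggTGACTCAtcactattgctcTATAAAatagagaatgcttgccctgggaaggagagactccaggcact
Mmp3: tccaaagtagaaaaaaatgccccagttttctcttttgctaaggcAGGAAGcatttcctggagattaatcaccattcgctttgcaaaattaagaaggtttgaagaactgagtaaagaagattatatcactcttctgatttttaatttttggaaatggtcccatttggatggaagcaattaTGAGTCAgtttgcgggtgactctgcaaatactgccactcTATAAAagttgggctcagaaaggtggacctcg
Mmp15: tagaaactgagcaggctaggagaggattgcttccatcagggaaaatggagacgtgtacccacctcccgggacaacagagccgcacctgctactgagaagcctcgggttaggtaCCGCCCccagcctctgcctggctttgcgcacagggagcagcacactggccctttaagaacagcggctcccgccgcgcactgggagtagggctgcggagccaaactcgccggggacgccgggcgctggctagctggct
Timp3: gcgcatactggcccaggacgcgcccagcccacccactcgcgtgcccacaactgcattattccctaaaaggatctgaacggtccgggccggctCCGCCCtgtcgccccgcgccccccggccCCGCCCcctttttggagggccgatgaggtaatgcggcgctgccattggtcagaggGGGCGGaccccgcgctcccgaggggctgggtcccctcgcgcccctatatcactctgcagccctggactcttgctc
In Mmp13 the capitals mark a PEA3 motif at 95 to 90 bases before the start, an AP-1 motif at 66 to 60 and a TATA box at 47 to 42. The same 3 motifs lay at 206 to 201, 71 to 65 and 32 to 27 bases before the start of Mmp3. The capitals in Mmp15 mark 1 GC box at 137 to 132 bases, and those in Timp3 mark 3 GC boxes at 158 to 153, 130 to 125 and 75 to 70 bases. The GC box of Mmp15 and the pair of Timp3 farthest from its start read as CCGCCC because they lie on the opposite strand.

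Promoters were found for 40 of the 52 genes and searched on both strands for AP-1 (TGANTCA, bound by Fos and Jun proteins), PEA3 (AGGAAG, bound by Ets factors), the TATA box (TATAAA), the GC box (GGGCGG, bound by Sp1) and the CArG box of serum response factor. None of the matches in the 4 sequences shown overlapped another. AP-1 matches were present in 7 of the 10 promoters of the chromosome 8 cluster and in 0 of the 30 others, against 6.34% of 33469 rat promoters. TATA boxes were present in 8 of the 10 and in 5 of the 30, against 12.9% of all promoters. GC boxes showed the opposite split, with 0 of the 10 and 20 of the 30, against 30.5% of all promoters. PEA3 matches were found in 5 of the 10 and in 10 of the 30, against 29.5%, and the CArG box in 0 of 40, against 1.5%. The median GC content was 41.4% over the 10 cluster promoters, 65.6% over the 30 others and 51.2% over all promoters. A match of letters says nothing of whether a factor was bound there in these cells.

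The 10 genes of the cluster, Mmp13, Mmp12, Mmp1b, Mmp3, Mmp1, Mmp10, Mmp8, Mmp27, Mmp20 and Mmp7 in this order on GRCr8, follow each other with no other protein-coding gene between them. They include the collagenases, the stromelysins Mmp3 and Mmp10, macrophage elastase, matrilysin and enamelysin. Mmp13, a collagenase, had 914, 878 and 947 scaled counts in the D1 libraries, 802, 752 and 857 in P, 783, 798 and 812 in RBPMS KD1 and 717, 712 and 759 in MBNL KD. Its D1 libraries were the highest, and its log2 fold changes were -0.19 in P, -0.19 in RBPMS KD1 and -0.32 in MBNL KD (edgeR's quasi-likelihood test, Benjamini-Hochberg adjusted p = 0.011, 0.0087 and 7.6e-05), all within a fold of 2. The other 9 genes had at most 8 counts in any library. Mmp3, a stromelysin, had the most of these, with 18 counts over the 12 libraries, 16 of them in P. Mmp1b and Mmp7 had no count, which at 3 counts allows up to 0.0371 CPM in the shallowest library.

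**Figure D1:**
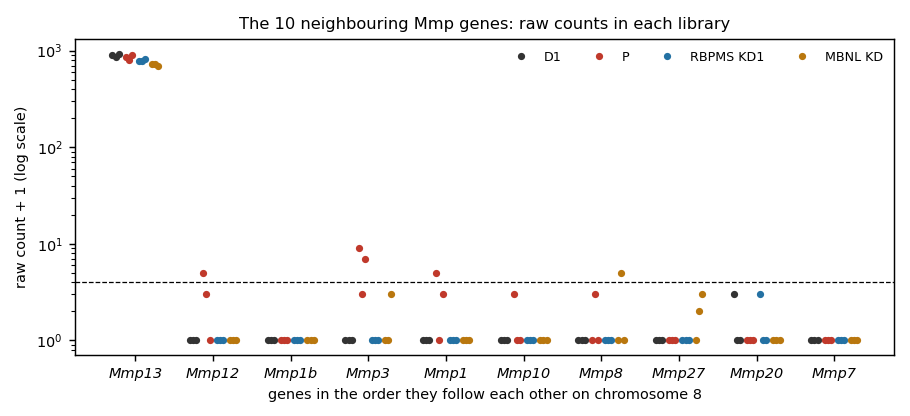
Raw counts plus 1 (log scale) of the 10 neighbouring Mmp genes in each of the 12 libraries, in their order on chromosome 8, with 1 point a library coloured by group and the dashed line at 3 counts plus 1. Mmp13 reaches up to 928 counts, while its 9 neighbours have at most 8 counts.

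Of the comparisons with D1, P had the most called genes of the family. In P, 23 of the 38 genes tested were called, 11 higher and 12 lower, where a call needs a fold above 2 and a p below 0.05 after Benjamini-Hochberg adjustment (edgeR, quasi-likelihood). This is 60.5% of the genes tested, against 27.6% of 16814 genes over the whole table (16.4% higher and 11.2% lower). The median absolute log2 fold change was 1.24 over the 38 genes and 0.46 over all genes tested, while the signed median was -0.15 against 0.02. Both directions occurred among the Mmp genes, with 4 higher and 4 lower of 12 tested, and among the Adamts genes, with 5 and 6 of 16. The 2 Adamtsl genes called were higher and the 2 Timp genes called were lower. A gene was tested only if it had enough counts in at least 3 of the 6 libraries, so that 1 high group sufficed, and 14 of the 52 genes did not. Mmp25, Adamts17 and Timp4 had at most 5 counts in each library of 1 group and passed through the other group alone. The filter thus favoured their calls, which are part of the 23.

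In RBPMS KD1, 6 of 37 genes were called, 5 higher and 1 lower, or 16.2% against 4.68% of all 15904 genes tested (3.06% higher and 1.62% lower). The median absolute log2 fold change of the 37 genes, 0.29, lay near the 0.23 of all genes. In MBNL KD, 7 of 37 were called, 4 higher and 3 lower, or 18.9% against 10.2% of 16053 genes (6.1% higher and 4.14% lower), with a median absolute log2 fold change of 0.60 (all genes 0.31). Many more genes passed the adjusted p alone, 33 of 38 in P, 28 of 37 in RBPMS KD1 and 29 of 37 in MBNL KD, but so did 77.9%, 59.1% and 67.5% of all genes. Several knockdown calls were of genes with few counts. With limma on the authors' normalised table in place of the counts, 22, 1 and 3 genes were called in P, RBPMS KD1 and MBNL KD.

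**Figure D2:**
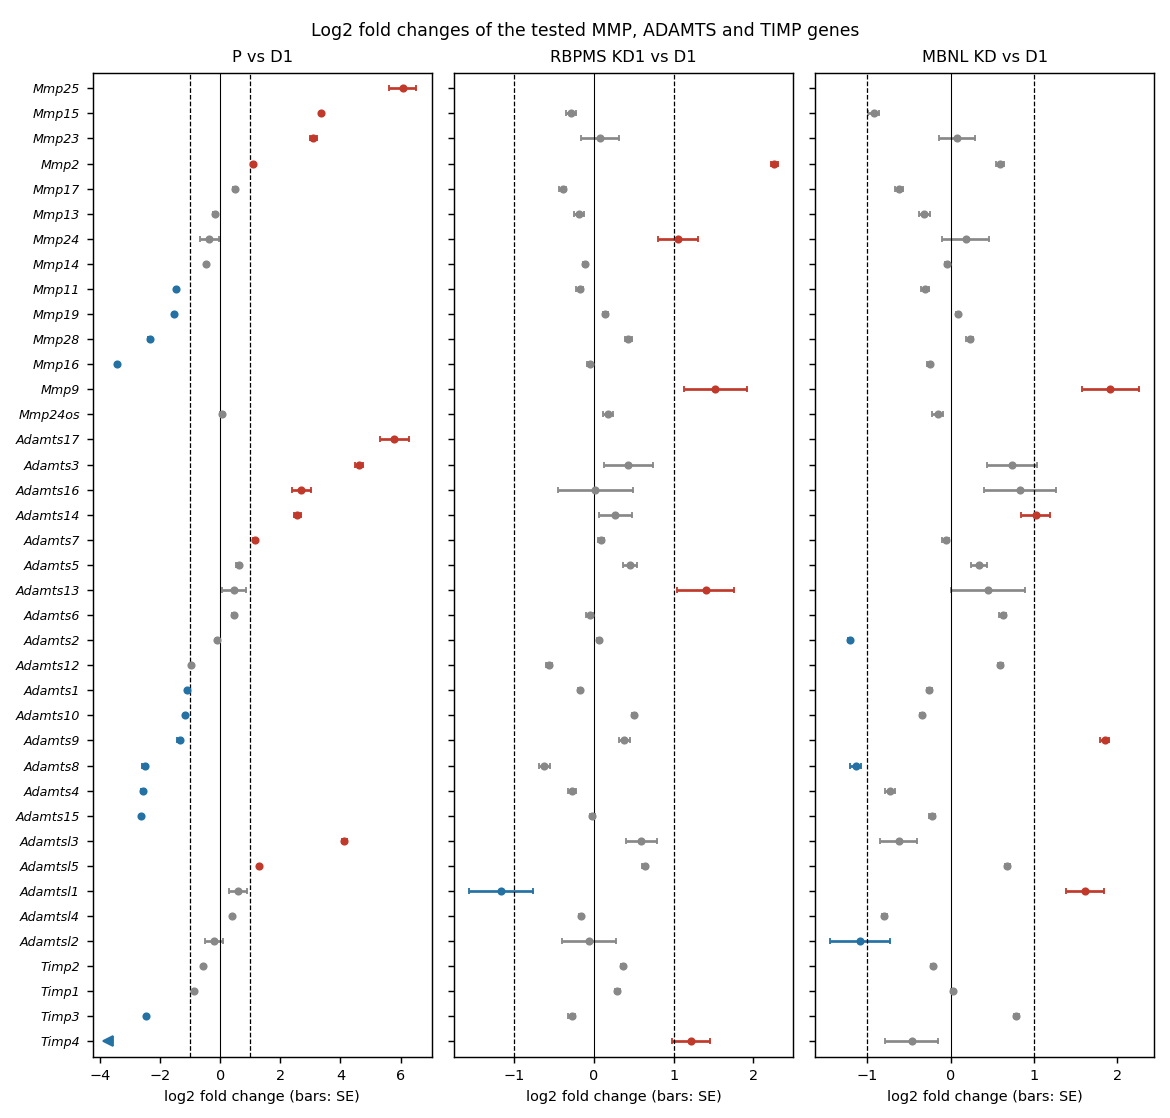
Log2 fold change with its standard error (horizontal bars) of each tested gene in P, RBPMS KD1 and MBNL KD, each against D1, with red for genes called higher, blue for genes called lower, grey for the rest, and dashed lines at a fold of 2. The arrow marks Timp4, which had no count in P, the axes of the 3 panels differ, and the values of Mmp25 and Adamts17 in P rest on at most 5 counts in D1.

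The gelatinases MMP2 and MMP9 cleave denatured collagen and the type IV collagen of basement membranes. Mmp2 had 1279, 1281 and 1336 scaled counts in the D1 libraries, 2909, 2553 and 2924 in P, 6245, 6580.0 and 5825 in RBPMS KD1 and 1926, 1943 and 1988 in MBNL KD. The 4 groups did not overlap, and D1 was the lowest and RBPMS KD1 the highest. Mmp2 rose 4.79-fold in RBPMS KD1 (log2 fold change 2.26, SE 0.0436, adjusted p = 2.3e-25 by edgeR's quasi-likelihood test) and 2.15-fold in P (1.11, SE 0.05, adjusted p = 7.8e-20). It was 1.51-fold higher in MBNL KD (0.60, SE 0.0483, adjusted p = 4.6e-12), which does not reach a fold of 2. RBPMS KD1 was also set directly against the other groups. Mmp2 was 2.26-fold lower in P than in RBPMS KD1 (adjusted p = 1.4e-22), and 3.18-fold higher in RBPMS KD1 than in MBNL KD (adjusted p = 5.8e-25).

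Mmp9 had few counts, with 12, 10 and 18 in the D1 libraries, 0, 0 and 4 in P, 26, 60 and 31 in RBPMS KD1 and 54, 56 and 42 in MBNL KD. Every library of either knockdown lay above every D1 library. The log2 fold change was 1.52 in RBPMS KD1 (SE 0.394, edgeR adjusted p = 0.0015) and 1.92 in MBNL KD (SE 0.342, adjusted p = 1.3e-05). The knockdowns overlapped and did not differ from each other at an adjusted p under 0.05 (-0.39, SE 0.294, adjusted p = 0.24). Against D1 in P the gene was under the low-count filter and not tested. It was tested and called there with no filter, with DESeq2, in 1 fit of all 12 libraries, and without D1 replicate 2 or any one of the P replicates. On the normalised table, limma gave 0.59 and 0.78 for the 2 knockdowns, under the fold of 2.

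The membrane-type MMPs act at the cell surface, MMP14, MMP15, MMP16 and MMP24 through a transmembrane segment and MMP17 and MMP25 through a lipid anchor. A pair of them moved in opposite directions between D1 and P. Mmp15 had 1386, 1565 and 1633 scaled counts in the D1 libraries, 15509.5, 15503 and 15601 in P, 1169, 1367 and 1211 in RBPMS KD1 and 749, 881 and 770.3 in MBNL KD. It rose 10.2-fold in P (log2 fold change 3.35, SE 0.0376, adjusted p = 3.8e-37 by edgeR). In both knockdowns it lay below every D1 library, by -0.29 in RBPMS KD1 (SE 0.0627, adjusted p = 0.00023) and by -0.93 in MBNL KD (SE 0.0669, adjusted p = 3.2e-13), and the latter passed a fold of 2 only without MBNL KD replicate 2 (-1.002). The RefSeq promoter printed above for Mmp15 has no TATA box and no AP-1 match.

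Mmp16 had 34637, 37463 and 34706 scaled counts in the D1 libraries, 3430.3, 3146 and 3295 in P, 33317, 34977 and 34317 in RBPMS KD1 and 30228, 29293 and 29541 in MBNL KD. The P libraries lay far below all others. Mmp16 fell 10.8-fold in P (log2 fold change -3.44, SE 0.0334, adjusted p = 6.1e-39 by edgeR). The RBPMS KD1 libraries overlapped those of D1 (-0.06, SE 0.0287, adjusted p = 0.094), and MBNL KD was 1.19-fold lower (-0.26, SE 0.0285, adjusted p = 3.9e-09).

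Mmp14, which activates MMP2 together with TIMP2, had means of 45418 ± 596 in D1, 32390.2 ± 259 in P, 41881 ± 427 in RBPMS KD1 and 43702 ± 630.4 in MBNL KD (scaled counts ± SD, n = 3). It was 1.40-fold lower in P (adjusted p = 3.6e-19 by edgeR) and 1.08-fold lower in RBPMS KD1 (adjusted p = 0.00014), and MBNL KD missed the threshold (adjusted p = 0.080). Mmp17 was 1.39-fold higher in P, 1.31-fold lower in RBPMS KD1 and 1.54-fold lower in MBNL KD, so that the states and the knockdowns lay on opposite sides of D1 (adjusted p = 2.7e-12, 3.1e-08 and 9.5e-13). Mmp25 was detected almost only in P, with 143, 132 and 118 counts there, 0, 5 and 0 in D1, 0, 0 and 2 in RBPMS KD1 and 4, 0 and 0 in MBNL KD. The ratio of its summed counts in P and D1, relative to total counts, was 81.4, with a 95% exact interval of 34.6 to 252 that covers counting error only (edgeR adjusted p = 4.8e-14). Taking 2 counts as 1 fragment widened the interval to 25.1 to 493. All 5 of the D1 counts came from D1 replicate 2, without which D1 had none and the fitted log2 fold change went from 6.08 to 9.99.

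Mmp24 had 55, 36 and 31 counts in D1, 28, 48 and 27 in P, 70, 81 and 107 in RBPMS KD1 and 58, 42 and 38 in MBNL KD. RBPMS KD1 lay above all other libraries, with a log2 fold change of 1.06 from D1 (SE 0.252, edgeR adjusted p = 0.00066), and the call was lost without D1 replicate 2 (0.98), D1 replicate 3 (0.89) or RBPMS KD1 replicate 3 (0.87), and with quantile normalization (0.92). The gene overlaps Mmp24os, whose scaled counts averaged 1101 ± 64.4 in RBPMS KD1 against 976 ± 64.2 in D1 (± SD, n = 3). The library kit named in the labels keeps strand, but whether the counting used it is not stated in the sources, so that reads of overlapping genes may have been shared.

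**Figure D3:**
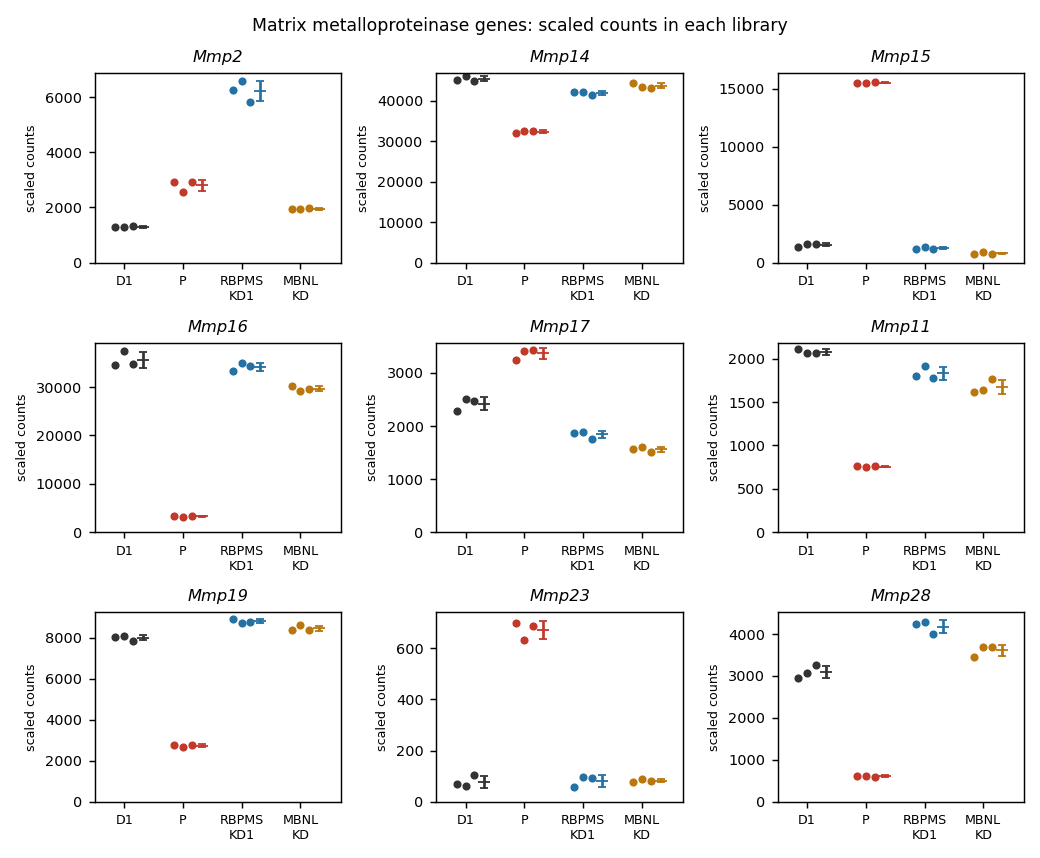
Scaled counts of 9 Mmp genes in each library (points) with the mean and SD of each group of 3 (bars), on linear axes that start at 0. Mmp2 is highest in RBPMS KD1, Mmp15 and Mmp23 are high in P alone, and Mmp16, Mmp11, Mmp19 and Mmp28 are lowest in P.

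The remaining expressed MMPs are secreted or, for MMP23, held in the membrane by an amino-terminal segment. Mmp28 (epilysin) had 2959, 3069.8 and 3259.7 scaled counts in the D1 libraries, 624, 619 and 586 in P, 4238, 4288 and 3994 in RBPMS KD1 and 3452, 3692 and 3679 in MBNL KD. Mmp19 had 8048, 8075 and 7838 in D1, 2777, 2674 and 2751 in P, 8917, 8725 and 8755 in RBPMS KD1 and 8386, 8601 and 8357 in MBNL KD. For Mmp11 (stromelysin-3) the values were 2115, 2060.3 and 2062 in D1, 758, 748 and 762 in P, 1795, 1919.8 and 1779 in RBPMS KD1 and 1610.1, 1636 and 1766 in MBNL KD. All 3 genes fell in P, where each library lay below every library of the other groups, by log2 fold changes of -2.35 for Mmp28 (SE 0.0523, adjusted p = 1.2e-28 by edgeR), -1.55 for Mmp19 (SE 0.0319, adjusted p = 1.2e-29) and -1.46 for Mmp11 (SE 0.0519, adjusted p = 8.3e-23). In the knockdowns none of them passed a fold of 2: Mmp28 was 1.35-fold higher in RBPMS KD1 and 1.17-fold higher in MBNL KD, and Mmp11 was 1.13-fold and 1.24-fold lower. A non-coding gene that overlaps Mmp28, LOC120095158, had means of 285.5 scaled counts in D1, 54.5 in P, 341.4 in RBPMS KD1 and 251.6 in MBNL KD.

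Mmp23 moved the other way, with 70.5, 59.9 and 104 scaled counts in D1, 699, 632 and 687 in P, 55.6, 96.2 and 94.2 in RBPMS KD1 and 76.5, 88.9 and 80.7 in MBNL KD. It rose 8.58-fold in P (log2 fold change 3.10, SE 0.126, adjusted p = 3.6e-21 by edgeR), while both knockdowns overlapped D1, with adjusted p = 0.82 and 0.77 and differences whose sign changed with the normalization. Mmp21 had at most 7 counts in a library and was not tested.

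Among the ADAMTS proteases, ADAMTS2, ADAMTS3 and ADAMTS14 remove the amino-terminal propeptide of fibrillar procollagens. Their genes did not move together. Adamts2 had 32707, 34063 and 32679 scaled counts in the D1 libraries, 30445, 30674 and 30255 in P, 34769, 35195 and 33668 in RBPMS KD1 and 14567, 14316 and 13974 in MBNL KD. The MBNL KD libraries were the lowest and the P libraries lay between them and the overlapping D1 and RBPMS KD1 libraries. Adamts2 fell 2.31-fold in MBNL KD (log2 fold change -1.21, SE 0.0264, adjusted p = 7.6e-26 by edgeR). The difference between the knockdowns was 2.42-fold (adjusted p = 2.4e-26). In P it was -0.12 (SE 0.0242, adjusted p = 2.9e-05), but 0.07 with quantile normalization, so that its direction is not settled.

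Adamts3 had 36.8, 31.0 and 23.5 scaled counts in D1, 694, 789 and 759.5 in P, 46.5, 34.4 and 42.1 in RBPMS KD1 and 37.8, 56.3 and 57.8 in MBNL KD. Adamts14 had 79.7, 95 and 74.5 in D1, 469.9, 495 and 507 in P, 118, 108 and 72.2 in RBPMS KD1 and 179, 191 and 133 in MBNL KD. Both genes were highest in P, with no overlap. Adamts3 rose 24.5-fold in P (log2 fold change 4.61, SE 0.134, adjusted p = 2.7e-25 by edgeR) and Adamts14 rose 5.90-fold (2.56, SE 0.121, adjusted p = 2.8e-19). In MBNL KD the log2 fold change of Adamts14 was 1.02 (SE 0.173, adjusted p = 5.8e-06), just above the threshold, and it fell to between 0.92 and 0.98 without D1 replicate 1, D1 replicate 3, MBNL KD replicate 1 or MBNL KD replicate 2, and to 0.84 with quantile normalization.

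ADAMTS1, ADAMTS4, ADAMTS5, ADAMTS8, ADAMTS9, ADAMTS15 and ADAMTS20 are able to cleave large proteoglycans such as versican and aggrecan. Of the 6 genes of this group that could be tested, 5 fell in P, beside 11.2% of all genes, and Adamts5 was 1.53-fold higher (edgeR adjusted p = 1.2e-07). Adamts15 had 6863, 6930.2 and 6510.1 scaled counts in D1, 1106, 1067 and 1080.0 in P, 6912, 6699 and 6398 in RBPMS KD1 and 6137, 5664 and 5498 in MBNL KD. For Adamts4 these values were 1691, 1697 and 1613 in D1, 312, 298 and 236 in P, 1379, 1356 and 1385 in RBPMS KD1 and 1080.4, 908 and 1010.3 in MBNL KD. In P both lay below every other library, with log2 fold changes of -2.64 for Adamts15 (SE 0.0391, adjusted p = 8.5e-34) and -2.56 for Adamts4 (SE 0.0753, adjusted p = 3.4e-25). In RBPMS KD1, Adamts15 overlapped D1 (adjusted p = 0.64). Adamts4 was lower in both knockdowns, by -0.28 in RBPMS KD1 (adjusted p = 1.8e-05) and -0.73 in MBNL KD (adjusted p = 3.5e-12).

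Adamts8 had 1158, 1339.8 and 1258 scaled counts in the D1 libraries, 232, 199.7 and 228 in P, 789.6, 767 and 878 in RBPMS KD1 and 542, 579.9 and 575 in MBNL KD. The groups did not overlap, and all 3 lay below D1. The log2 fold changes were -2.51 in P (SE 0.0807, edgeR adjusted p = 4.4e-24), -1.14 in MBNL KD (SE 0.0671, adjusted p = 2.7e-15) and -0.62 in RBPMS KD1 (SE 0.0656, adjusted p = 2.8e-09), the last of them under the fold of 2. It was called lower both in P and in a knockdown. Adamts8 and Adamts15 are neighbours on chromosome 8, away from the Mmp cluster, with no protein-coding gene between them.

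Adamts9 had 595, 648 and 567 scaled counts in D1, 244, 234 and 233 in P, 803, 774 and 776 in RBPMS KD1 and 2104, 2199 and 2177 in MBNL KD. Here P lay below D1 and MBNL KD above all other libraries. Adamts9 fell 2.55-fold in P (log2 fold change -1.35, SE 0.0909, adjusted p = 4.3e-15 by edgeR) and rose 3.60-fold in MBNL KD (1.85, SE 0.0575, adjusted p = 4.7e-22). RBPMS KD1 was 1.3-fold above D1 (0.38, SE 0.0698, adjusted p = 2.9e-05) and 2.75-fold below MBNL KD (adjusted p = 1.3e-20).

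Adamts1 had 48244, 52002 and 48247 scaled counts in D1, 23011, 23498 and 23179 in P, 44199.9, 43424 and 43340.1 in RBPMS KD1 and 41253, 40826 and 41515 in MBNL KD. It fell 2.13-fold in P (log2 fold change -1.09, SE 0.0269, edgeR adjusted p = 2.2e-27), which became -0.93 with quantile normalization and so missed the fold of 2. The knockdowns were 1.13-fold and 1.20-fold lower than D1 without overlap (adjusted p = 1.9e-06 and 1.8e-09). Its neighbour on chromosome 11, Adamts5, had higher means than D1 in all 3 groups, at 327 ± 13.9 in D1, 502 ± 18.6 in P, 446 ± 11.6 in RBPMS KD1 and 411 ± 26.1 in MBNL KD (scaled counts ± SD, n = 3). Adamts20 had at most 3 counts in a library.

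**Figure D4:**
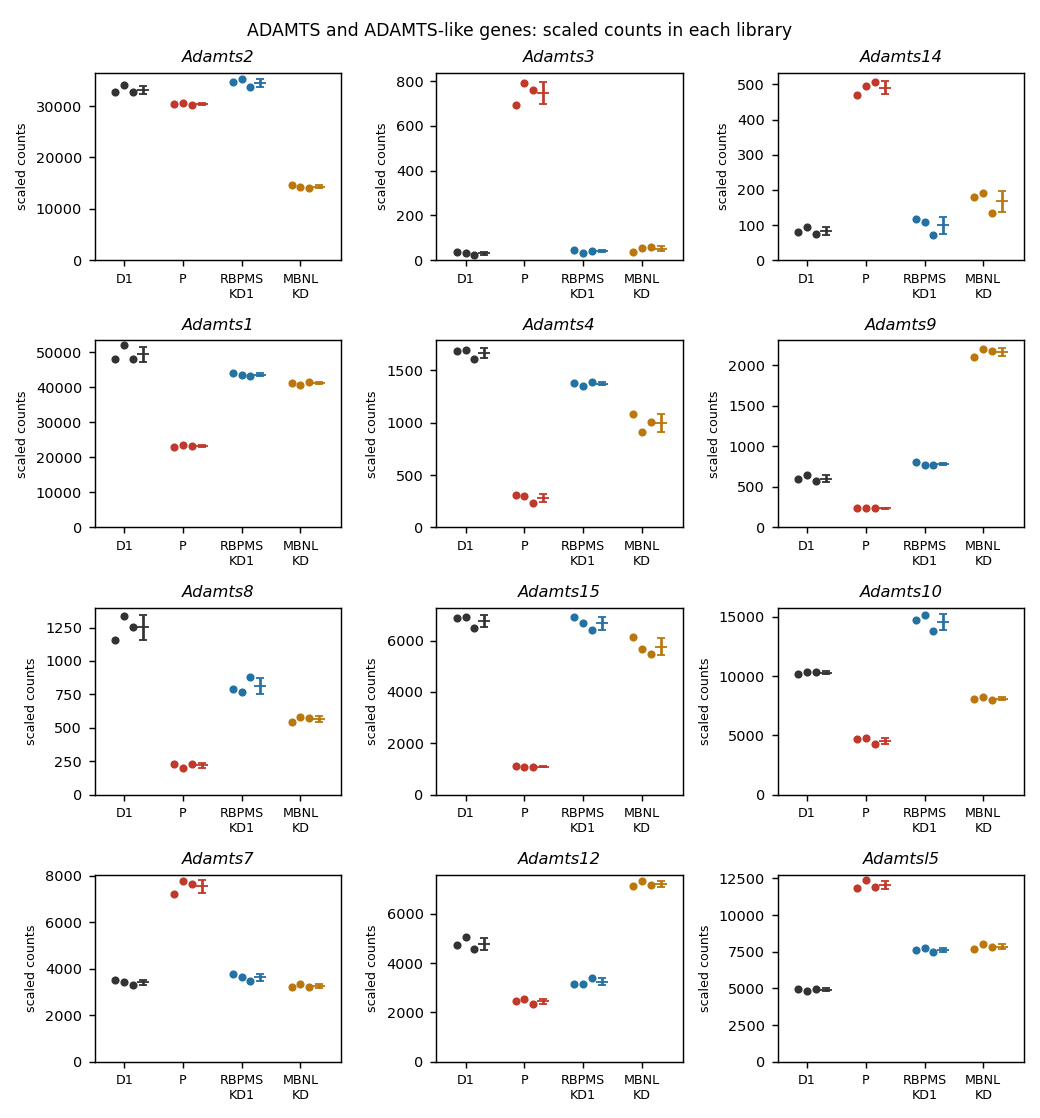
Scaled counts of 11 Adamts genes and Adamtsl5 in each library (points) with the mean and SD of each group of 3 (bars), on linear axes that start at 0. Adamts2 is lowest in MBNL KD, Adamts9 is low in P and high in MBNL KD, and Adamts3 and Adamts14 are highest in P.

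ADAMTS7 and ADAMTS12 cleave cartilage oligomeric matrix protein, and ADAMTS7 has been tied to the migration of vascular smooth muscle cells. Adamts7 had 3524, 3437 and 3309 scaled counts in the D1 libraries, 7244, 7766 and 7643 in P, 3757, 3661 and 3466 in RBPMS KD1 and 3209, 3356 and 3219 in MBNL KD. It rose 2.20-fold in P (log2 fold change 1.14, SE 0.0338, edgeR adjusted p = 4.4e-25), and both knockdowns overlapped D1 (adjusted p = 0.059 and 0.13). Adamts12 had means of 4793 ± 245 in D1, 2451 ± 91.6 in P, 3242 ± 143 in RBPMS KD1 and 7212 ± 114 in MBNL KD (scaled counts ± SD, n = 3). The knockdowns lay on either side of D1, 1.48-fold lower in RBPMS KD1 (adjusted p = 8.3e-13) and 1.51-fold higher in MBNL KD (adjusted p = 3.2e-16), and differed 2.22-fold from each other (adjusted p = 6.4e-23). In P its log2 fold change of -0.97 (SE 0.0398, adjusted p = 5.1e-21) lay just under the threshold, and it was -1.01 without D1 replicate 3.

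ADAMTS6 and ADAMTS10 are related proteases of the fibrillin microfibrils. Adamts10 had 10181, 10367 and 10349.5 scaled counts in D1, 4655, 4737 and 4240.3 in P, 14746, 15139.6 and 13824 in RBPMS KD1 and 8107, 8203 and 7972 in MBNL KD. It fell 2.27-fold in P (log2 fold change -1.18, SE 0.0330, edgeR adjusted p = 8.3e-26), lay 1.42-fold above D1 in RBPMS KD1 (adjusted p = 1.5e-14) and 1.27-fold below D1 in MBNL KD (adjusted p = 2.3e-13). Adamts6 showed other differences, 1.37-fold higher in P (adjusted p = 3.0e-11), 1.54-fold higher in MBNL KD (adjusted p = 5.7e-14) and close to D1 in RBPMS KD1 (-0.05, SE 0.0455, adjusted p = 0.32).

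The other Adamts genes had few counts. Adamts16 had 16, 12 and 8 counts in D1 and 87, 87 and 81 in P, and rose there (log2 fold change 2.695, SE 0.309, edgeR adjusted p = 1.7e-09). Adamts17 had 2, 0 and 2 counts in D1 and 82, 99 and 81 in P, a ratio of 67.8 relative to total counts with a 95% exact interval of 26.2 to 251, or 18.4 to 566 with 2 counts taken as 1 fragment (adjusted p = 6.6e-13). In both knockdowns Adamts17 stayed at 4 counts or fewer. Adamts13, the protease of von Willebrand factor, had 12, 15 and 12 counts in D1 and 34, 35 and 36 in RBPMS KD1, a log2 fold change of 1.40 (SE 0.357, adjusted p = 0.0013), and it overlaps Cacfd1, whose mean was 3289 in D1 and 3830 in RBPMS KD1. The Adamts13 call was lost with limma on the normalised table. Adamts18 and Adamts19 had at most 4 counts in a library.

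The ADAMTS-like proteins bind matrix, and ADAMTSL2 and ADAMTSL4 are linked to fibrillin microfibrils. Adamtsl3 had 84.8, 76.4 and 67.4 scaled counts in D1, 1402, 1296 and 1306 in P, 127, 98.3 and 119 in RBPMS KD1 and 46.7, 50.4 and 50.2 in MBNL KD. It rose 17.5-fold in P (log2 fold change 4.13, SE 0.0937, edgeR adjusted p = 2.0e-28). Beside this large rise, RBPMS KD1 lay 1.51-fold above D1 (adjusted p = 0.0085) and MBNL KD 1.54-fold below it (adjusted p = 0.015), and they differed 2.34-fold from each other (adjusted p = 4.0e-06).

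Adamtsl5 had 4971, 4817 and 4944 scaled counts in D1, 11831, 12372 and 11928 in P, 7612, 7772 and 7489 in RBPMS KD1 and 7673, 8015 and 7809.5 in MBNL KD. All 3 groups lay above D1 without overlap, by 2.45-fold in P (log2 fold change 1.29, SE 0.0288, edgeR adjusted p = 1.1e-28), 1.55-fold in RBPMS KD1 (adjusted p = 1.1e-16) and 1.60-fold in MBNL KD (adjusted p = 6.8e-19). Adamtsl4 was 1.31-fold higher in P and lower in both knockdowns, 1.12-fold in RBPMS KD1 and 1.74-fold in MBNL KD (adjusted p = 2.9e-15, 3.0e-05 and 1.7e-21).

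Adamtsl1 had 37.8, 49.5 and 26.5 scaled counts in D1, 37.7, 51.1 and 81.5 in P, 30.3, 10.1 and 10.0 in RBPMS KD1 and 116, 129 and 100.4 in MBNL KD. MBNL KD lay above all other libraries and the log2 fold change from D1 was 1.61 (SE 0.231, edgeR adjusted p = 4.0e-07). With limma on the normalised table, the Adamtsl1 calls in both knockdowns against D1 were lost. RBPMS KD1 overlapped D1 through its first library, and its call (-1.17, SE 0.400, adjusted p = 0.014) was lost without D1 replicate 2 (-0.93), RBPMS KD1 replicate 2 (-0.91) or RBPMS KD1 replicate 3 (-0.90), while it was -1.90 without RBPMS KD1 replicate 1. The difference between the knockdowns was 6.82-fold (-2.77, SE 0.297, adjusted p = 1.4e-09), and -3.49 on the log2 scale without that library. Adamtsl2 had 60, 24 and 69 counts in D1 and 24, 34 and 14 in MBNL KD, which overlapped. Its log2 fold change there (-1.09, SE 0.358, adjusted p = 0.0087) lost its call without D1 replicate 1 (-0.97), D1 replicate 3 (-0.81) or MBNL KD replicate 3 (-0.85), the library that stood apart.

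The inhibitors were lower in P throughout. Timp2 had 105147, 106453 and 103131 scaled counts in the D1 libraries, 71439, 69411 and 71365 in P, 129635, 134222 and 140219.5 in RBPMS KD1 and 90655, 89352 and 90849.7 in MBNL KD. Timp1 had 13484, 13872 and 13107 in D1, 7332, 7619 and 7107 in P, 16743, 17112 and 15582 in RBPMS KD1 and 13573, 13981 and 13591 in MBNL KD. Both were lowest in P and highest in RBPMS KD1. In P, Timp1 was 1.84-fold lower (log2 fold change -0.88, SE 0.0293, edgeR adjusted p = 1.4e-23) and Timp2 1.48-fold lower (-0.57, SE 0.0233, adjusted p = 4.5e-21), neither past a fold of 2. In RBPMS KD1, Timp1 was 1.22-fold higher (0.29, SE 0.0307, adjusted p = 3.1e-09) and Timp2 1.29-fold higher (0.36, SE 0.0269, adjusted p = 2.2e-12). MBNL KD was 1.16-fold lower than D1 for Timp2 (adjusted p = 1.3e-09) and overlapped D1 for Timp1 (adjusted p = 0.27).

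Timp3, whose protein stays bound to the matrix, had 3361, 3564 and 3223 scaled counts in D1, 638, 591 and 622 in P, 2623, 2852 and 2855 in RBPMS KD1 and 5908, 5777 and 5742 in MBNL KD. The 4 groups did not overlap, with P the lowest and MBNL KD the highest. Timp3 fell 5.49-fold in P (log2 fold change -2.46, SE 0.0516, edgeR adjusted p = 2.1e-29). MBNL KD was 1.73-fold higher than D1 (0.79, SE 0.0348, adjusted p = 2.6e-18), RBPMS KD1 was 1.22-fold lower (-0.28, SE 0.0429, adjusted p = 1.7e-06), and the knockdowns differed 2.09-fold from each other (adjusted p = 2.4e-21). The gene lies within Syn3, which had a mean of 123.4 scaled counts in D1, 153.7 in P, 70.6 in RBPMS KD1 and 115.1 in MBNL KD.

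Timp4 had few counts, 47, 40 and 30 in D1, 0, 0 and 0 in P, 76, 105 and 96 in RBPMS KD1 and 26, 26 and 32 in MBNL KD. Against a floor of 3 counts in each library, it was at least 13.3-fold lower in P than in D1 (edgeR adjusted p = 3.8e-10). RBPMS KD1 lay above all other libraries, 2.33-fold over D1 (log2 fold change 1.22, SE 0.238, adjusted p = 6.6e-05), although limma on the normalised table gave 0.70. MBNL KD overlapped D1 (-0.47, SE 0.316, adjusted p = 0.20). Taken as a family, the Timp genes held 0.132% ± 0.00217 of all counts in D1, 0.0954% ± 0.00107 in P, 0.168% ± 0.00587 in RBPMS KD1 and 0.124% ± 0.00111 in MBNL KD (SD, n = 3). The Mmp genes held 0.108% ± 0.00198, 0.0765% ± 0.000193, 0.111% ± 0.00112 and 0.104% ± 0.000288 in the same order. The Adamts genes held 0.123% ± 0.00337 in D1, 0.0903% ± 0.00138 in P, 0.122% ± 0.00153 in RBPMS KD1 and 0.098% ± 0.000167 in MBNL KD. The Adamtsl genes held 0.0166% ± 0.000179, 0.0327% ± 0.000519, 0.0185% ± 0.000428 and 0.0157% ± 0.000184 in that order. These shares weigh long and abundant genes most.

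**Figure D5:**
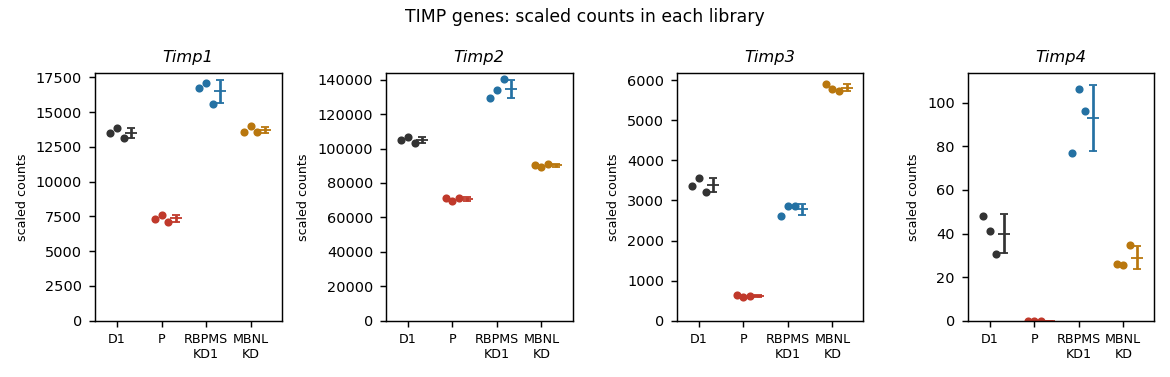
Scaled counts of the 4 Timp genes in each library (points) with the mean and SD of each group of 3 (bars), on linear axes that start at 0. All 4 genes are lowest in P, Timp1, Timp2 and Timp4 are highest in RBPMS KD1, and Timp3 is highest in MBNL KD.

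The direct comparison of the knockdowns, which does not use the D1 libraries, called 9 of 37 genes, or 24.3% against 11.9% of 16111 genes (6.03% higher and 5.88% lower), and 29 of 37 passed the adjusted p alone, beside 69.5% of all genes. Mmp2, Adamts2, Timp4, Adamtsl3 and Adamtsl2 were higher in RBPMS KD1, and Adamtsl1, Adamts9, Adamts12 and Timp3 were higher in MBNL KD. The Adamtsl2 call (log2 fold change 1.03, SE 0.359, edgeR adjusted p = 0.012) was lost without MBNL KD replicate 3 (0.81) or RBPMS KD1 replicate 3 (0.59), and with limma on the normalised table both it (0.56) and Adamtsl3 (0.90) fell under the fold of 2. The comparisons with D1 share their control libraries, so that agreement between them is not independent. By call against D1, Mmp9 was higher in both knockdowns, Mmp2 was higher in both P and RBPMS KD1, Adamts14 was higher in both P and MBNL KD, and Adamts8 was lower in both P and MBNL KD. The Adamts14 call in MBNL KD was lost under the alternatives given above. Timp4 was lower in P and higher in RBPMS KD1, Adamts9 was lower in P and higher in MBNL KD, and Adamtsl1 was lower in RBPMS KD1 and higher in MBNL KD.

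P against RBPMS KD1 called 25 of 39 genes, or 64.1% against 29.1% of 16899 genes (16.1% higher and 13.0% lower), and 36 of 39 passed the adjusted p alone, beside 79.4% of all genes. The Timp genes were lower in P, by 2.28-fold for Timp1 (edgeR adjusted p = 1.5e-26), 1.94-fold for Timp2 (adjusted p = 7.3e-26), 4.58-fold for Timp3 (adjusted p = 8.4e-28) and at least 31.0-fold for Timp4 (adjusted p = 2.7e-14). Mmp15 was 12.2-fold higher (adjusted p = 3.2e-38) and Mmp16 10.6-fold lower in P (adjusted p = 6.8e-40). Here Mmp9, Mmp25, Adamts17 and Timp4 passed the low-count filter through 1 high group alone, which favoured their calls.

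Other genes of extracellular proteolysis were described from a list of 36, in which 10 of 29 tested were called in P, 4 of 28 in RBPMS KD1 and 7 of 29 in MBNL KD, beside 27.6%, 4.68% and 10.2% of all genes. In P, the protease inhibitor gene Serpine2 (log2 fold change 2.45), the lysosomal protease gene Ctss (3.83) and the heparanase gene Hpse (5.75) were higher. Pcsk6, a proprotein convertase gene, had a mean of 2519 scaled counts in P and at most 2 counts in any D1 library, and Fap, a surface protease gene, had means of 75.3 and 2.05. Reck, a membrane-anchored inhibitor of MMPs, was lower (-1.58), with means of 13565 scaled counts in D1, 4527 in P, 23062 in RBPMS KD1 and 14783 in MBNL KD. The other genes called lower in P were Pcsk5 (-1.81), Adam33 (-2.17) and Papln (-1.59, with means of only 35.2 in D1 and 11.67 in P). In RBPMS KD1, Adam8 (1.33) and Ctss (1.77) were higher, and Adam12 (-1.501) and Tll1 (-1.39) were lower. Adam8, Ctss and Tll1 had few counts, with D1 means of 37.6, 39.9 and 43.39. In MBNL KD, Serpinb2 (1.48) and Dpp4 (2.17) were higher. Both had few counts, with D1 and MBNL KD means of 21.15 and 58.8 for Serpinb2 and of 3.4 and 15.73 for Dpp4. Adam10 (-2.14), Adam15 (-2.04), both membrane-bound sheddases, Ctsb (-1.41) and Hpse (-1.56) were lower there. The median log2 fold change of the list was -0.25 in P, 0.24 in RBPMS KD1 and 0.16 in MBNL KD, against 0.02, 0.00 and 0.01 over all genes.

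Genes of known substrates were described from a list of 18. In P, 9 of 15 tested were called, beside 27.6% of all genes. The proteoglycan gene Acan (log2 fold change 8.86), Thbs2 (3.52) and Vwf (1.298) were higher, while the basement membrane collagens Col4a1 (-2.96) and Col4a2 (-2.79), the fibrillins Fbn1 (-2.71) and Fbn2 (-1.83), Fn1 (-1.61) and Col3a1 (-1.47) were lower. Fbn2 and Vwf had few counts, with D1 means of 41.71 and 40.65. In RBPMS KD1, 2 of 16 were called, beside 4.68% of all genes, with Thbs2 (1.27) and Vwf (1.22) higher. In MBNL KD, 2 of 16 were called, beside 10.2%, with Thbs1 (1.66) and Comp (1.26) higher. The median over the list was -0.33 in P, 0.27 in RBPMS KD1 and 0.04 in MBNL KD.

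Marker genes moved with the groups. The 8 smooth muscle markers were all present in D1 and all 8 fell in P, with a median log2 fold change of -5.10, beside 11.2% of all genes called lower. In RBPMS KD1, 4 of the 8 were called, all lower, beside 1.62% of all genes, and in MBNL KD, 0 of the 8, beside 4.14%. All 8 passed the adjusted p alone in each knockdown, with medians of -1.04 in RBPMS KD1, where all were lower, and -0.41 in MBNL KD, where Myh11 and Cnn1 were higher and the others lower. In bulk RNA, fewer cells in a state and less RNA in each cell cannot be told apart. The summed scaled counts of 6 endothelial markers were 67.1 to 72.5 in D1, 486.8 to 604.7 in P, 162.1 to 165.4 in RBPMS KD1 and 82.9 to 127.4 in MBNL KD. Of these markers Cdh5, Kdr and Tie1 lay at 3 counts or fewer outside P. The 3 that could be tested in P were called higher, beside 16.4% of all genes: Cdh5 (means of 0.0 in D1 and 121.64 in P), Tek (3.71) and Vwf (1.298). Tek (mean 314.86) made up most of the sum in P. In RBPMS KD1, 2 of 2 tested were called higher, Tek (1.32) and Vwf (1.22), beside 3.06%, and in MBNL KD 0 of 2. The 6 macrophage markers summed to 5181.7 to 5550.4 in D1, 4323.9 to 4518.5 in P, 7498.5 to 7726.9 in RBPMS KD1 and 4646.6 to 4931.2 in MBNL KD, with Adgre1 and Itgam at 3 counts or fewer in all groups. Nearly all of this sum was Cd14 (mean 5270.1 in D1), and Csf1r was called higher in MBNL KD (1.301). Epithelial markers (6 genes) summed to 3158.8 to 3315.8 in D1, 7126.6 to 7387.0 in P, 3452.6 to 3680.1 in RBPMS KD1 and 4757.3 to 4831.0 in MBNL KD, with Krt19 and Cldn4 at 3 counts or fewer throughout. Nearly all of this sum was Krt8 (mean 3222.8 in D1), the only epithelial marker tested, which was called higher in P (1.167) and in neither knockdown. The 6 fibroblast markers summed to 1279789.8 to 1343295.0 in D1, 1589929.8 to 1774173.5 in P, 1779692.8 to 1897061.3 in RBPMS KD1 and 1154805.7 to 1185260.1 in MBNL KD, and of these 6 only Dcn in MBNL KD was called (-1.24). Nearly all of this sum was Col1a1 (mean 1290876.67 in D1), and in RBPMS KD1 Lum lay below D1 (-0.38) while the sum lay above it. The part of other cell types in the differences of the protease and inhibitor genes was not tested.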

How the data were processed

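Paired-end reads of the 12 libraries were thinned by the authors to an equal depth, aligned with STAR 2.7.11b to mRatBN7.2 and counted per RefSeq gene with featureCounts, whose strand setting is not given in the sources used here. The deposited counts are whole read counts per gene symbol with no normalization. The second deposited table holds signal values, noise-corrected with noisyR and quantile-normalised by the authors across the 12 libraries, with 35 as the smallest value of 19812 genes. No column of either table was left unused.

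Counts were tested in R 4.3.3 with edgeR 4.0.16 (filterByExpr on the 6 libraries compared, TMM, quasi-likelihood F test), fitted on all genes and adjusted by Benjamini-Hochberg over all genes tested. Calls needed both an adjusted p below 0.05 and a log2 fold change larger than 1 up or down. The SE of a log2 fold change was taken as its size over the root of the F statistic, and errors of means are SDs of 3 libraries. Scaled counts are counts divided by TMM size factors over the 12 libraries. A group whose libraries all had 0 counts was set to 3 counts a library, and ratios of counts at or near 0 carry an exact 95% interval, also with 2 counts taken as 1 fragment, an alternative chosen after seeing the data. With 3 libraries against 3 an exact permutation test cannot go below p = 0.1, so none was run. In simulated counts with 200 changed genes, 200 were called in each comparison with D1, with 0, 2 and 1 false calls among 16814, 15904 and 16053 genes in P, RBPMS KD1 and MBNL KD. The changed genes were all well counted and moved well beyond a fold of 2, and every gene had the same small spread. The simulation therefore cannot speak for calls near a fold of 2 or in genes with few counts.

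The members were fixed by symbol, and they and the gene lists were chosen with earlier results of these data known. Values in every library are given for members called against D1 that reached 100 scaled counts in the higher group of that comparison, and for the Timp genes. The others are given by counts, ranges and examples, and from the lists the called genes are named, except for a result that is not reported here. Library numbers did not pair the samples (correlations of same-numbered libraries from -0.0226 to 0.0695). Alternatives were DESeq2 size factors, quantile normalization, no filter, at least 10 counts in every library, DESeq2 1.42.0, 1 fit of 12 libraries, a replicate block, limma 3.58.1 on the log2 normalised table, and leaving out each library in turn. All 52 symbols matched a RefSeq table of assembly GRCr8, used for gene order and promoters only, since the counts rest on another build.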

Additional observations from a re-analysis of the deposited data

How the results depend on the processing

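The number of genes called in each comparison stayed within 1.5 times its reported value under every alternative except limma on the normalised table, which called 1 gene in place of 6 in RBPMS KD1 and 3 in place of 7 in MBNL KD. The genes lost there had low counts (Mmp9, Mmp24, Adamts13, Adamtsl1 and Timp4 in RBPMS KD1, and Mmp9, Adamts14, Adamtsl1 and Adamtsl2 in MBNL KD), and the cause was not tested, since that alternative changed the values, their normalization and the test together. Leaving out 1 library at a time gave 23 to 24 called genes in P against D1, 4 to 6 in RBPMS KD1, 5 to 7 in MBNL KD, 8 to 10 between the knockdowns and 25 to 26 in P against RBPMS KD1. Without MBNL KD replicate 3, 6 genes were called in MBNL KD. A minimum of 10 counts in every library left 19 calls in P, since Adamts16, Adamts17, Mmp25 and Timp4 were not tested, and no filter gave 25, with Mmp3 and Mmp9 added.

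The fold changes recomputed one by one were those of the called genes in every comparison and, against D1, also those of the Timp genes, the other genes described in every library and the genes past the adjusted p alone. Of these, 1832 kept their direction and stayed called or not called, 32 kept their direction but lost the call, 2 gained it (Adamts12 in P without D1 replicate 3, and Mmp15 in MBNL KD without MBNL KD replicate 2) and 15 changed sign. Of the other genes that passed the low-count filter, a call was gained between the knockdowns by Adamts13 (with quantile normalization and without MBNL KD replicate 2 or 3) and Mmp24 (without replicate 1 of either knockdown), and in P against RBPMS KD1 by Adamts13 (with quantile normalization and without P replicate 3). The sign changed for values near 0. Adamts2 in P was 0.065 with quantile normalization and 0.066 with limma. Mmp23 was -0.056 and -0.042 in RBPMS KD1 and -0.129 and -0.076 in MBNL KD under the same alternatives. Adamts7 was 0.005 and 0.006 in MBNL KD. Leaving out single libraries gave -0.09 to 0.332 for Mmp23 in RBPMS KD1, with the sign changed without D1 replicates 1 or 2 or RBPMS KD1 replicates 2 or 3, and -0.091 to 0.334 for Mmp23 in MBNL KD, changed without D1 replicates 1 or 2. Adamts15 in RBPMS KD1 ranged from -0.048 to 0.009, above 0 only without RBPMS KD1 replicate 3. The cause of these changes was not tested.

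Fitted with a replicate block, the counts gave 23, 6 and 7 called genes in P, RBPMS KD1 and MBNL KD, 25 in P against RBPMS KD1, and 8 in place of 9 between the knockdowns, where Adamtsl2 (0.97) was lost. The libraries share only a number, and the block changed no other call. Over all genes, 2933 were called in P in place of 4641 with at least 10 counts in every library, and 3154 in place of 4914 in P against RBPMS KD1. Limma called 209 in place of 745 in RBPMS KD1, 784 in place of 1643 in MBNL KD and 1050 in place of 1920 between the knockdowns. Of all genes called, 59.4% were higher in P, 65.4% in RBPMS KD1 and 59.6% in MBNL KD, with 55.4% in P against RBPMS KD1, but 45.9%, 54.4%, 50.8% and 45.2% with quantile normalization. The split of the family in P was then 11 higher and 11 lower. Depth limits the low genes, and counting intervals leave out the spread between cultures.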
